A study of Mus musculus with 10 samples.

Results

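Mitotic cyclins and kinases are described here in a reprogramming time course of mouse embryonic fibroblasts (MEFs). The 10 genes, of 48476 in the table of the whole series, were chosen by name as the enzymes that start and run mitosis: the kinase Cdk1, the cyclins Ccna2, Ccnb1 and Ccnb2, the kinases Plk1, Aurka, Aurkb and Bub1, and the phosphatases Cdc25b and Cdc25c. All 10 were found, and all 10 passed the filter on low counts, so each was tested.

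The MEFs came from CBA/CaJ X C57BL/6J embryos at day 13.5 of development, and the methods describe MEFs with an Oct4-GFP reporter. Both arms received retroviruses for Oct4, Klf4 and Sox2 (OKS) and were cultured in iCD1 medium. The OKS + FoxO6 arm also received the forkhead factor FoxO6, and the OKS + DsRed arm, labelled OKS+DR, received the red fluorescent protein DsRed in its place. Each arm gave 1 bulk RNA-seq library at days 0, 1, 3, 5 and 7, which makes 10 libraries. The labels name no sort of the cells and no replicate culture, so the libraries of an arm may trace to 1 infected culture.

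Entry into mitosis is driven by Cdk1 bound to cyclin A or cyclin B. The kinases Wee1 and Myt1 hold the complex inactive by phosphorylation, and the Cdc25 phosphatases remove these phosphates. Plk1 and the Aurora kinases then build the spindle and attach the chromosomes, Bub1 takes part in the spindle checkpoint, and the anaphase promoting complex ends mitosis by marking the cyclins and securin for destruction. Their mRNAs are made mainly in late S phase, G2 and mitosis, from promoters in which CCAAT boxes (bound by NF-Y) and the CHR element (bound by the DREAM and MuvB complexes) are well known. In bulk samples, fewer dividing cells and less of these mRNAs per dividing cell cannot be told apart.

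The promoters of 7 of the 10 genes were matched by symbol in the RefSeq table (GRCm38.p6), and Ccna2, Aurkb and Cdc25c are not shown. Windows from 250 bases before to 50 bases after the start were searched on both strands for CCAAT, for the CHR letters TTTGAA and for the forkhead letters TGTTTAC; no matches of different motifs overlapped in these genes. CCAAT was found in 7 of 7 windows, against 37.4% of the 32851 promoters in the table, and 2 or more copies were found in 5, against 11.7%. TTTGAA was found in 4 (Cdk1, Ccnb2, Plk1 and Aurka), against 17.9%, and TGTTTAC in 0, against 3.65%. The sequences below are the 120 bases upstream of the start, shown for the 4 genes that hold both CCAAT and TTTGAA and for Cdc25b, the gene with the widest difference between the arms on a single day. They lie at chr10:69352913-69353032 (minus strand, Cdk1), chr9:70421555-70421674 (minus strand, Ccnb2), chr7:122159315-122159434 (plus strand, Plk1), chr2:172370571-172370690 (minus strand, Aurka) and chr2:131186828-131186947 (plus strand, Cdc25b). Capitals mark CCAAT, its reverse complement ATTGG, and TTTGAA:
Cdk1: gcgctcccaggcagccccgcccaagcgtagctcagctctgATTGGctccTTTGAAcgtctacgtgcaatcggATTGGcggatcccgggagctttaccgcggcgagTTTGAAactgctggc
Ccnb2: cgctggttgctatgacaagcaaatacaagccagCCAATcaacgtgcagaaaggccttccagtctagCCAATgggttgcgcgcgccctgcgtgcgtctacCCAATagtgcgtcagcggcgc
Plk1: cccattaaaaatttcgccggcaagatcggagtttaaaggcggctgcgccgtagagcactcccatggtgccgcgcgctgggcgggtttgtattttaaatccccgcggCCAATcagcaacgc
Aurka: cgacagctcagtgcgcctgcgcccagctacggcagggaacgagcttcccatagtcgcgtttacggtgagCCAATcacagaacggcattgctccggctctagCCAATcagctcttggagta
Cdc25b: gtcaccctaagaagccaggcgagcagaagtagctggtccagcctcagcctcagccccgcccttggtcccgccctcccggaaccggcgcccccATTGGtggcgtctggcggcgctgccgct
In Cdk1 the TTTGAA copies begin at positions -71 and -15 from the start, between and after a pair of ATTGG boxes. In Ccnb2 the 3 CCAAT boxes shown begin at positions -87, -54 and -21. In Plk1 and Aurka the TTTGAA lies after the start, and in Ccnb2 the copies lie at either side of the stretch shown. A match is a description of the letters, and binding was not measured.

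The libraries held 1208379 to 2225750 expected counts, with a median of 1601151. Foxo6 checked the labels of the arms: its level was 0.61 to 2.29 TPM (transcripts per 1e6, scaled by length) in OKS + DsRed and 762 to 1356 TPM in OKS + FoxO6, high already at day 0. Of the 8 fibroblast markers, 8 reached a mean of 1 TPM. Their summed level was 7578, 6169, 4035, 2308 and 2341 TPM in OKS + DsRed at days 0, 1, 3, 5 and 7. In OKS + FoxO6 it was 6521, 4136, 3978, 3073 and 2563 TPM on the same days.

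The 10 genes were expressed in every library. In the order of their median levels over the 10 libraries they were Cdk1 at 161 TPM, Plk1 at 101 TPM, Ccna2 at 94.0 TPM, Ccnb1 at 93.0 TPM, Aurka at 77.2 TPM, Ccnb2 at 69.8 TPM, Aurkb at 66.2 TPM, Cdc25b at 56.3 TPM, Bub1 at 29.2 TPM and Cdc25c at 12.1 TPM. The ranges over libraries of any 2 neighbours in this order overlapped. Cdc25c was measured from 14 to 37 counts per library and is the least precise of them, while Ccna2 had 134 to 289. Summed over the 10 genes, the level in OKS + DsRed was 793, 978, 856, 1085 and 809 TPM in the order of the days. In OKS + FoxO6 the sum was 524, 831, 637, 615 and 588 TPM on the same days. The sum was therefore lower in OKS + FoxO6 on all 5 days, by 34.0%, 15.0%, 25.5%, 43.3% and 27.4% in day order. In TPM the gap was narrowest at day 1 and widest at day 5. As a share of all counts the relative gap was nearly the same at days 0 and 5. The 10 genes held 0.0457% in OKS + FoxO6 against 0.0792% in OKS + DsRed at day 0, and 0.0594% against 0.1024% at day 5.

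**Figure D1:**
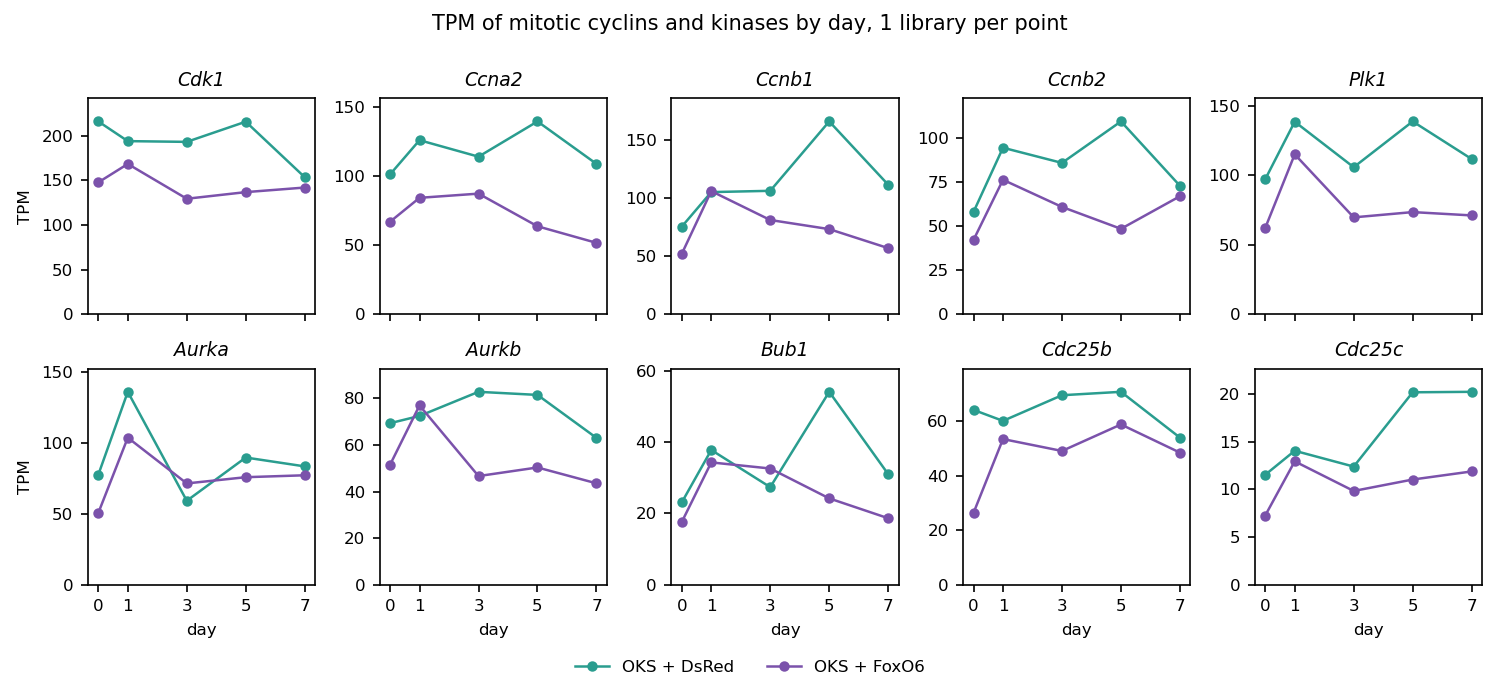
TPM (linear axis from 0) of each of the 10 genes against day, with 1 library per point, OKS + DsRed in green and OKS + FoxO6 in purple. In the Ccna2 panel the arms do not overlap, and in OKS + DsRed 6 of the 10 genes have their highest value at day 5. The share of all genes with their highest value on that day was not counted.

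Over the 5 days, 4 of the 10 mitotic genes fell below OKS + DsRed in the OKS + FoxO6 arm at an adjusted p under 0.05, against 7.13% of the 10977 genes tested (783 genes lower). The test was edgeR's quasi-likelihood test on the counts with day as a factor, adjusted over all genes tested. The 4 were Ccna2, Plk1, Ccnb1 and Aurkb, and none of the 10 was called higher, a direction that took 6.93% of all genes. The other 6 genes also had negative estimates, and the median log2 fold change of the 10 was -0.53, against -0.02 over all genes tested, of which 52.1% were negative. At an unadjusted p under 0.05 there were 9 of the 10, against 28.0% of all genes. DESeq2 called 3 of the 10 lower at an adjusted p under 0.05, with 557 genes lower over the whole table. The p-values measure the spread that remains between these 10 libraries, not between independent infections.

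Cdk1, the catalytic partner of the mitotic cyclins (ENSMUSG00000019942, chromosome 10 from 69335146 to 69352938, minus strand, GRCm38), had 216, 194, 193, 216 and 154 TPM at days 0, 1, 3, 5 and 7 in OKS + DsRed. In OKS + FoxO6 it had 148, 169, 129, 137 and 142 TPM. The OKS + FoxO6 value was the lower one on every day, but the day 1 value of OKS + FoxO6 lay above the day 7 value of OKS + DsRed, so the arms overlapped. The shift was -0.42 ± 0.13 (log2, SE, 10 libraries) with an adjusted p of 0.0576 in edgeR, which misses the threshold.

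Ccna2, which encodes cyclin A2, the cyclin of S phase and early mitosis (ENSMUSG00000027715, chromosome 3 from 36564865 to 36572150, minus strand), separated the arms. Its level was 101, 126, 114, 139 and 109 TPM in OKS + DsRed and 66.8, 84.1, 87.1, 63.5 and 51.5 TPM in OKS + FoxO6. All 5 OKS + FoxO6 libraries lay below all 5 OKS + DsRed libraries, a separation in that direction seen in 1.44% of the 11422 genes with a mean of at least 5 TPM, and in none of the other 9 genes. The shift was -0.73 ± 0.14 on the log2 scale, a 1.65-fold lower count, with an adjusted p of 0.00610 in edgeR. It stayed under the threshold in 11 of 11 alternative fits, each left-out day included.

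The B-type cyclins bind Cdk1 at the onset of mitosis. Ccnb1 (ENSMUSG00000041431, chromosome 13 from 100778650 to 100786570, minus strand) had 75.3, 105, 106, 166 and 111 TPM in OKS + DsRed and 51.9, 106, 81.0, 73.1 and 56.8 TPM in OKS + FoxO6. The arms met at day 1 and were apart at days 5 and 7, where OKS + DsRed had 2.25-fold and 1.94-fold the OKS + FoxO6 level in TPM + 1. On scaled counts the day 5 ratio of OKS + FoxO6 to OKS + DsRed was 0.547. The effective transcript length assigned to Ccnb1 that day was 1832 nucleotides in OKS + DsRed and 2360 in OKS + FoxO6. Its shift was -0.61 ± 0.14 with an adjusted p of 0.0172 in edgeR, and the call was lost without day 3 (adjusted p of 0.0625) or without day 5 (0.0967) with limma on log2(TPM + 1) (0.0758) and without the day term (0.153). Ccnb2 (ENSMUSG00000032218, chromosome 9 from 70407692 to 70421547, minus strand) had 57.9, 94.4, 85.7, 109 and 72.8 TPM in OKS + DsRed and 42.1, 76.2, 60.8, 48.4 and 66.9 TPM in OKS + FoxO6. Its widest gap was at day 5 and its narrowest at day 7. The shift of -0.53 ± 0.18 had an adjusted p of 0.0725 in edgeR and was -0.35 without day 5.

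Plk1, the Polo kinase of centrosomes, kinetochores and cytokinesis (ENSMUSG00000030867, chromosome 7 from 122159439 to 122169873, plus strand), had 97.0, 138, 106, 139 and 112 TPM in OKS + DsRed and 62.0, 115, 69.6, 73.4 and 71.0 TPM in OKS + FoxO6. Only the day 1 library of OKS + FoxO6 reached into the range of OKS + DsRed. The shift was -0.63 ± 0.13, 1.54-fold lower, with an adjusted p of 0.0104 in edgeR, and the call was lost without day 5 (0.0659) and without the day term (0.122).

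The Aurora kinases differed from each other in how clearly they separated the arms, a difference that was not tested. Aurkb, the kinase of the chromosomal passenger complex (ENSMUSG00000020897, chromosome 11 from 69045647 to 69051664, plus strand), had 69.4, 72.5, 82.9, 81.5 and 63.1 TPM in OKS + DsRed and 51.5, 77.0, 46.7, 50.4 and 43.5 TPM in OKS + FoxO6. Apart from day 1 the OKS + FoxO6 libraries lay below all those of OKS + DsRed. The shift was -0.54 ± 0.15 with an adjusted p of 0.0381 in edgeR, and it was lost without day 0 (0.0951), without day 3 (0.159), without day 5 (0.154), with limma (0.118), with DESeq2 (0.144) and without the day term (0.122). Aurka, the kinase of centrosomes and spindle poles (ENSMUSG00000027496, chromosome 2 from 172356190 to 172370535, minus strand), had 77.4, 136, 59.0, 89.5 and 83.3 TPM in OKS + DsRed and 50.4, 104, 71.3, 75.7 and 77.0 TPM in OKS + FoxO6. Both arms had their highest Aurka level at day 1, and at day 3 the OKS + FoxO6 value was the higher one. Its shift was the smallest of the 10, -0.25 ± 0.16, with an adjusted p of 0.343 in edgeR, and it was -0.13 without day 0.

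Bub1, the checkpoint kinase of kinetochores (ENSMUSG00000027379, chromosome 2 from 127801122 to 127831865, minus strand), had 23.0, 37.8, 27.3, 54.1 and 31.0 TPM in OKS + DsRed and 17.6, 34.3, 32.6, 24.2 and 18.6 TPM in OKS + FoxO6. The gap was wide at day 5, 2.19-fold in TPM + 1, and at day 3 the OKS + FoxO6 library was higher in TPM (but not in scaled counts). The shift of -0.53 ± 0.17 had an adjusted p of 0.0562 in edgeR.

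The phosphatases Cdc25b and Cdc25c, which activate Cdk1, had negative estimates that missed the threshold. Cdc25b (ENSMUSG00000027330, chromosome 2 from 131186949 to 131198497, plus strand) had 64.1, 60.0, 69.5, 70.7 and 53.9 TPM in OKS + DsRed and 26.3, 53.4, 49.0, 58.7 and 48.4 TPM in OKS + FoxO6. The day 0 library of OKS + FoxO6 stood apart as the lowest, 2.39-fold under OKS + DsRed in TPM + 1. The fitted shift of -0.52 ± 0.19 (adjusted p of 0.0926 in edgeR) was -0.31 without day 0. Cdc25c (ENSMUSG00000044201, chromosome 18 from 34732993 to 34751533, minus strand) had 11.5, 14.1, 12.4, 20.2 and 20.2 TPM in OKS + DsRed and 7.25, 12.9, 9.83, 11.0 and 11.9 TPM in OKS + FoxO6. It was lower in OKS + FoxO6 on every day, and at its low counts the shift of -0.57 ± 0.24 had an adjusted p of 0.146 in edgeR.

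The estimate was negative for each of the 10 genes in 11 of 11 alternative fits, while the number called varied. Without day 5 the count fell to 1 (Ccna2), while the genes called lower over the whole table fell from 783 to 297. Without day 3 it was 2 (Ccna2 and Plk1), with 320 genes lower over the whole table. Without day 7 it was 7, with Cdk1, Ccnb2 and Cdc25b added and 757 genes lower over the whole table. Removal of the trend with transcript length also gave 7, with Cdk1, Ccnb2 and Bub1 added and 978 genes lower over the whole table.

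At each day by itself there was 1 library per arm and no test, and a difference in log2(TPM + 1) past 2-fold was counted. Each count is set against the share of genes detected in either library and then of genes with a mean of at least 5 TPM, as the 10 genes all have. At day 0 the difference held for 1 of the 10 genes (Cdc25b), against 7.92% and 4.17%. It held for 0 genes at day 1, against 11.7% and 6.39%, and 0 at day 3, against 13.6% and 8.33%. At day 5 it held for 4 (Ccna2, Ccnb1, Ccnb2 and Bub1), against 13.2% and 7.77%, and for 3 on CPM, where Ccnb1 was at -0.86. The day 7 count was 1 (Ccna2), against 18.6% and 12.6%. None was past 2-fold higher on any day. With smaller differences counted, 46 of the 50 pairs of values were lower in OKS + FoxO6, 10 of 10 genes at days 0, 5 and 7 and 8 of 10 at days 1 and 3. Among genes with a mean of at least 5 TPM, 40.9%, 48.9%, 48.7%, 47.6% and 57.9% were lower at days 0, 1, 3, 5 and 7. Cdk1, Ccna2, Ccnb2, Plk1, Cdc25b and Cdc25c were lower on all 5 days, as were 9.64% of those genes. The median difference of the 10 genes was -0.57, -0.19, -0.44, -0.86 and -0.58 in log2(TPM + 1), against 0.11, 0.004, 0.01, 0.03 and -0.13 over the genes with that mean. On log2 counts per effective library size, where the median over the same genes was between -0.014 and -0.002 on every day, the median of the 10 was -0.73, -0.26, -0.50, -0.86 and -0.36.

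The counts behind each ratio give a 95% Clopper-Pearson interval on the scale of counts per effective library size, which covers counting error only. In 30 of the 50 pairs the interval lay wholly below 1, in 20 it included 1, and in 0 it lay wholly above 1. The number of genes below 1 was 8, 3, 7, 9 and 3 on the 5 days in order, which is read against 15.8%, 14.0%, 16.8%, 19.1% and 22.4% of the 11422 genes with a mean of at least 5 TPM. These intervals narrow with the count of a gene, and the comparison was not matched on counts. Ccna2 and Plk1 were below 1 on all 5 days, as were 1.60% of those genes. At day 5 the exception was Aurka, with a ratio of 0.808 and an interval of 0.625 to 1.05, and Ccnb2 had the lowest ratio of that day, 0.425 (0.311 to 0.578). The single pair that was higher in OKS + FoxO6 in both TPM and counts, with an interval that included 1, was Aurka at day 3, with a ratio of 1.18 (0.882 to 1.59). Ccnb1 and Aurkb at day 1 and Bub1 at day 3 were higher in TPM but lower in counts, and Ccnb2 and Aurka at day 7 were lower in TPM but at ratios of 1.01 and 1.02 in counts. The effective transcript length assigned to Bub1 at day 3 was 3361 nucleotides in OKS + DsRed and 2520 in OKS + FoxO6.

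**Figure D2:**
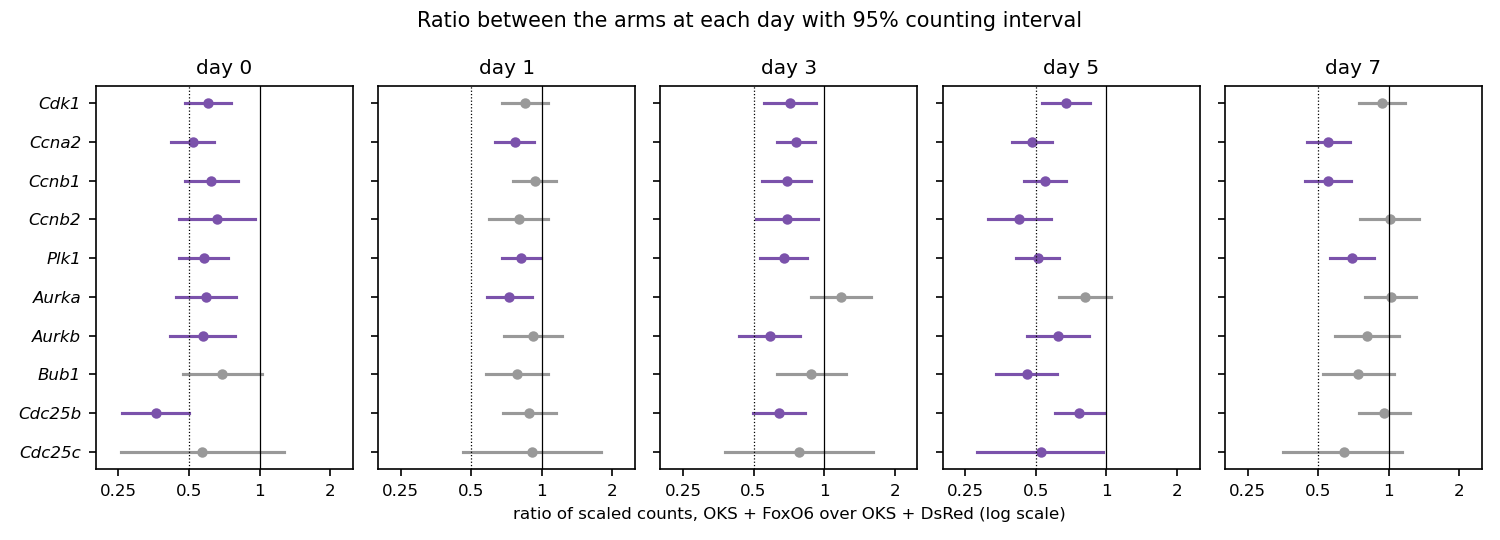
Ratio of scaled counts, OKS + FoxO6 over OKS + DsRed, on a log axis, for the 10 genes in a panel per day, with bars for the 95% Clopper-Pearson interval of counting error. Purple marks intervals wholly below 1 (8, 3, 7, 9 and 3 genes at days 0, 1, 3, 5 and 7, against 15.8%, 14.0%, 16.8%, 19.1% and 22.4% of all genes with a mean of at least 5 TPM) and grey those that include 1, and the dotted line is 2-fold lower.

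The course over the days was described within each arm, and a change with day common to the arms was tested in the same edgeR fit. None of the 10 genes passed (adjusted p from 0.120 for Aurka to 0.810 for Ccna2), while 19.6% of all genes did. At an unadjusted p under 0.05 there was 1 of the 10 in edgeR, against 33.0% of all genes, and 0 in DESeq2. In OKS + FoxO6, 10 of 10 genes were higher at day 1 than at day 0, with a median difference in log2(TPM + 1) of 0.86, from 0.19 for Cdk1 to 1.02 for Aurka. In OKS + DsRed 8 of 10 were higher, with a median of 0.39. From day 1 to day 3, 9 of 10 were lower in OKS + FoxO6, with a median of -0.37, and 7 of 10 in OKS + DsRed, with a median of -0.14. From day 3 to day 5, 9 of 10 genes were higher in OKS + DsRed, with a median of 0.37 led by Bub1 at 0.96, and 6 of 10 in OKS + FoxO6, with a median of 0.08. Between days 5 and 7, 9 of 10 were lower again in OKS + DsRed, with a median of -0.38, and 6 of 10 in OKS + FoxO6, with a median of -0.13 against -0.21 over genes with a mean of at least 5 TPM in that arm. Over the same genes the 4 steps in order had medians of 0.156, 0.013, -0.007 and -0.063 in OKS + DsRed. In OKS + FoxO6 the medians were 0.055, 0.026, 0.01 and -0.21. The share of these genes that rose or fell at each step was not counted.

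In OKS + DsRed the highest level fell at day 5 for 6 genes (Ccna2, Ccnb1, Ccnb2, Plk1, Bub1 and Cdc25b). In OKS + FoxO6 it fell at day 1 for 8 genes, the exceptions being Ccna2 at day 3 and Cdc25b at day 5. These days rest on single libraries, and the share of all genes with their highest level on them was not counted. A straight-line change of the arm difference with day was called for 0 of the 10 genes in edgeR, against 1.98% of all genes. The slopes ran from -0.07 to 0.12 log2 units per day (adjusted p from 0.290 to 0.911 in edgeR). At an unadjusted p under 0.05 there were 0 of the 10 in edgeR, against 18.8% of all genes, and 0 in DESeq2.

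The genes moved together over the 10 libraries to different degrees. Pearson's r of log2(TPM + 1) between a gene and the mean of the other 9, given as a description over 10 libraries that share arms and days, was 0.968 for Plk1, 0.927 for Ccnb1, 0.885 for Ccnb2, 0.847 for Ccna2, 0.835 for Bub1, 0.810 for Aurkb, 0.786 for Cdc25c, 0.727 for Cdc25b, 0.700 for Cdk1 and 0.590 for Aurka. Among 11412 other genes with a mean of at least 5 TPM, the 10 most like the mean of the members were Top2a (r of 0.969), Cdca8 and Prc1 (0.951 each), Incenp (0.949), Bub1b and Racgap1 (0.946 each), Cenpn (0.937), Ect2 (0.934), Anp32e (0.929) and Isoc1 (0.928). Top2a is the DNA topoisomerase of condensing chromosomes, Cdca8 and Incenp are subunits of the Aurkb complex, and Prc1, Racgap1 and Ect2 act at the central spindle and in cytokinesis.

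In 5 lists of genes that work with these enzymes, 64 genes were tested, of which 11 were lower in OKS + FoxO6, 2 were higher and 51 did not pass, against 7.13% lower and 6.93% higher among all genes tested. The counts of each list are read against the same shares. Among the partners and regulators of Cdk1, 3 of 11 were lower, 1 was higher and the median log2 fold change was -0.38. The 3 were Wee1 (-0.89 ± 0.23, adjusted p of 0.0255 in edgeR) and Pkmyt1, which encodes Myt1 (-0.65 ± 0.18, 0.0353), both inhibitory kinases of Cdk1, and Cks2 (-0.64 ± 0.15, 0.0186), a small subunit that binds Cdk1. Arpp19, which as a target of the kinase Mastl inhibits the phosphatase PP2A, was higher (0.61 ± 0.13, 0.0104). Its level was 167, 192, 143, 135 and 101 TPM in OKS + DsRed and 192, 255, 235, 248 and 293 TPM in OKS + FoxO6, higher on each of the 5 days. Mastl (0.09), Ensa (-0.11) and Cdc25a (0.14, a further Cdc25 phosphatase) did not pass, and Ccna1 and Ccnb3 were too low to be tested.

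Among 12 genes of the spindle checkpoint and kinetochore, 3 were lower, 0 were higher and 11 had negative estimates, with a median of -0.55. Bub1b, which encodes the checkpoint protein BubR1, had 30.9, 63.9, 54.4, 69.6 and 40.8 TPM in OKS + DsRed and 19.6, 39.0, 26.5, 32.1 and 21.1 TPM in OKS + FoxO6. On every day the OKS + FoxO6 value was the lower, with a shift of -0.95 ± 0.14 and an adjusted p of 0.00147 in edgeR. Gsg2, the symbol in the files for the histone kinase haspin, had -0.69 ± 0.20 (0.0407), and Casc5, the symbol for the kinetochore scaffold Knl1, had -0.79 ± 0.24 (0.0476). Among 8 tested partners of the Aurora and Polo kinases, 1 (12.5%) was lower, Cdca8 (-0.59 ± 0.16, adjusted p of 0.0340 in edgeR), and the median was -0.39. The Aurora relative Aurkc was at 0 in all libraries.

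Among 19 genes of the anaphase promoting complex and its targets, 2 (10.5%) were lower, 1 was higher and the median was -0.09, against -0.02 over all genes. Cdc20, the activator that turns the complex on in mitosis, had 143, 194, 95.5, 123 and 119 TPM in OKS + DsRed and 71.3, 111, 75.2, 47.3 and 72.2 TPM in OKS + FoxO6. Its shift was -0.88 ± 0.16 with an adjusted p of 0.00521 in edgeR. Espl1, which encodes separase, the protease that cuts cohesin, had -0.59 ± 0.18 (0.0491). Pttg1, which encodes securin, the inhibitor of separase, went the other way. Its level was 60.9, 135, 184, 122 and 131 TPM in OKS + DsRed and 64.6, 329, 522, 637 and 714 TPM in OKS + FoxO6, near each other at day 0 and higher in OKS + FoxO6 on each later day. The shift was 1.67 ± 0.28 on the log2 scale, 3.17-fold higher, with an adjusted p of 0.00306 in edgeR. The subunits of the complex itself, 8 Anapc genes with Cdc16, Cdc23, Cdc26 and Cdc27, did not pass, the lowest estimate being Cdc23 at -0.39 with an adjusted p of 0.112 in edgeR.

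**Figure D3:**
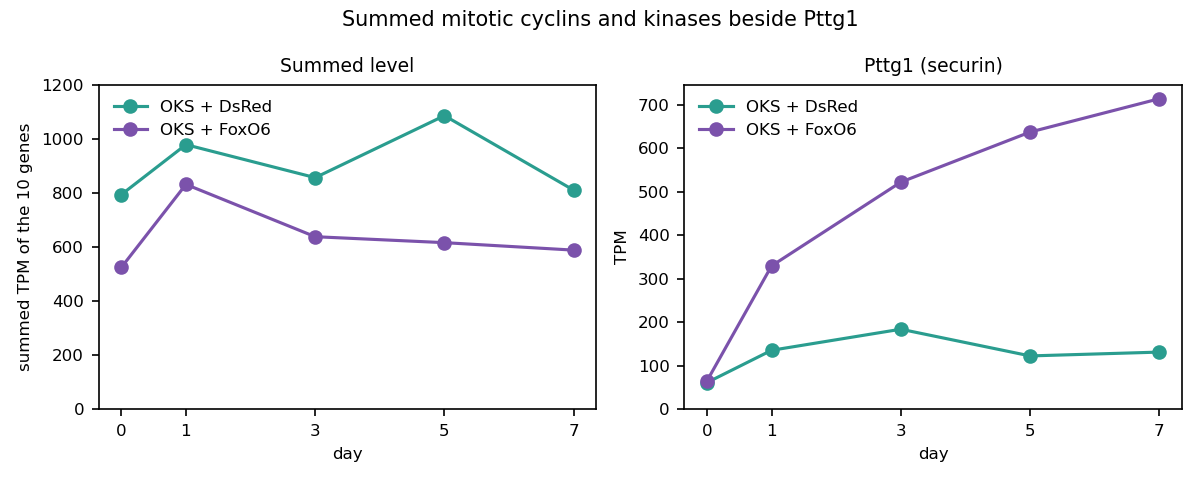
Summed TPM of the 10 mitotic cyclins and kinases (left) and TPM of Pttg1 (right) against day, 1 library per point, OKS + DsRed in green and OKS + FoxO6 in purple, both axes linear from 0. The sum is lower in OKS + FoxO6 on all 5 days, by 15.0% to 43.3%, while Pttg1 reaches 714 TPM in OKS + FoxO6 and 131 TPM in OKS + DsRed at day 7.

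Among 14 transcription factors and cofactors of G2/M genes, 2 were lower, 0 were higher and the median was -0.04. Mybl2, which encodes B-Myb, had -0.77 ± 0.22 (adjusted p of 0.0407 in edgeR) and E2f7, a repressor of the E2F family, had -0.71 ± 0.21 (0.0489). Foxm1, the forkhead activator of G2/M genes, had 79.2, 106, 84.7, 87.6 and 65.9 TPM in OKS + DsRed and 61.1, 76.7, 77.0, 79.6 and 58.8 TPM in OKS + FoxO6, and its shift of -0.28 ± 0.13 had an adjusted p of 0.182. The subunits of NF-Y (Nfya, Nfyb and Nfyc) had estimates from -0.08 to 0.09 and did not pass.

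Of the 13 calls in these 5 lists, 13 were lost without the day term (adjusted p of 0.0517 for Bub1b, 0.117 for Cdc20 and 0.113 for Pttg1 in edgeR). DESeq2 lost 7 (Cks2, Pkmyt1, Gsg2, Casc5, Cdca8, Espl1 and E2f7), and limma on log2(TPM + 1) lost 8, the same ones apart from Cks2, with Wee1 and Mybl2 added. Bub1b, Cdc20 and Pttg1, 3 of the 13, held whichever day was left out. Arpp19 lost its call without day 5. Cks2 lost its call without day 1 or day 5, and Wee1 without day 3 or day 5. Cdca8 lost its call without day 0, day 3 or day 5. With a day left out, Pkmyt1 and Gsg2 kept theirs only without day 7 (Gsg2 also lost its call with no filter on low counts, adjusted p of 0.0701 in edgeR), Casc5 and E2f7 only without day 1, Espl1 only without day 0, and Mybl2 only without day 1.

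**Figure D4:**
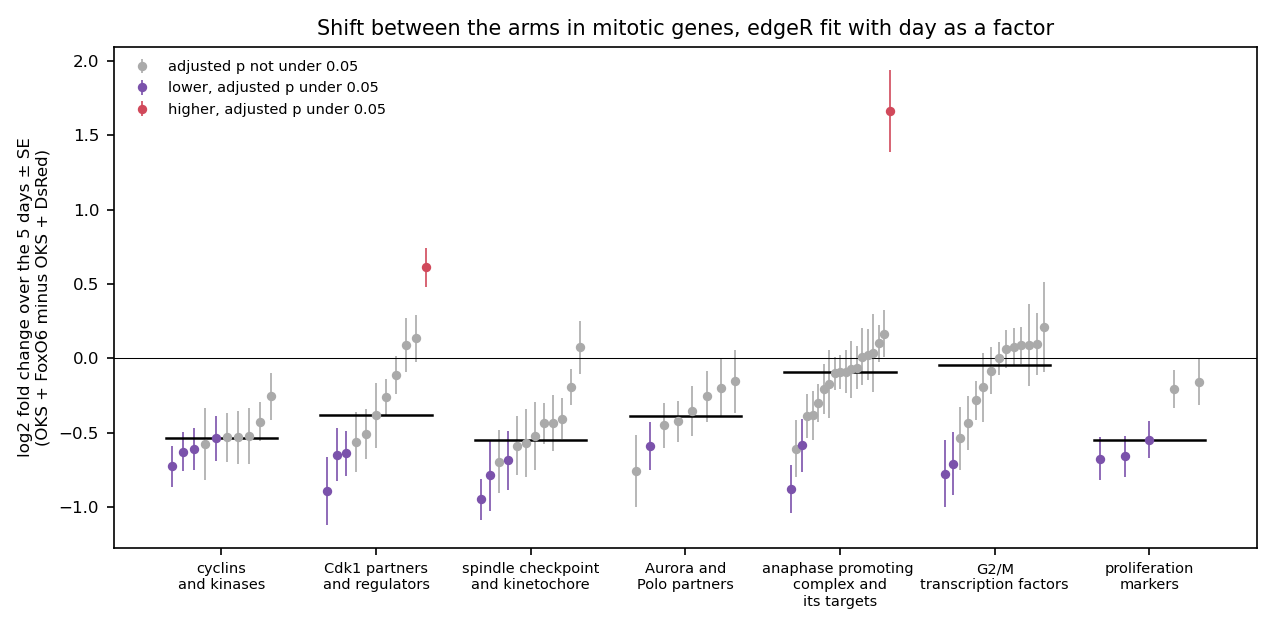
Log2 fold change over the 5 days (OKS + FoxO6 minus OKS + DsRed, points, with SE as bars) for the 10 cyclins and kinases and for 6 lists of related genes, ordered within a list, with the list's median as a black line. Purple points are lower and red points higher at an adjusted p under 0.05, and the highest red point is Pttg1 at 1.67.

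General markers of proliferation were read beside them. Of 5, Top2a (-0.67 ± 0.14, adjusted p of 0.0107 in edgeR), Rrm2, a subunit of ribonucleotide reductase (-0.66 ± 0.14, 0.0100), and Mki67 (-0.55 ± 0.12, 0.0151) were lower. The replication clamp Pcna (-0.21, 0.332) and the thymidylate synthase gene Tyms (-0.16, 0.577) did not pass. Top2a and Mki67 are themselves made mostly in G2 and mitosis. Without day 5 or without the day term none of these 3 calls held, limma on log2(TPM + 1) lost those of Top2a and Mki67, those of Mki67 and Rrm2 were also lost without day 3, and that of Mki67 with the length trend removed (0.0511).

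Markers of other cell types were read in the same libraries. The 6 epithelial markers had a summed level of 15.9 to 675 TPM in OKS + DsRed and 3.66 to 149 TPM in OKS + FoxO6, and the 6 pluripotency markers 1.31 to 305 TPM and 0.71 to 51.0 TPM. All 6 of each list reached a mean of 1 TPM over the libraries. The 6 endothelial markers, 3 of them at a mean of 1 TPM, summed to 20.9 to 56.5 TPM and 30.5 to 142 TPM, and the 6 macrophage markers, 2 of them at that mean, to 11.0 to 55.5 TPM and 16.2 to 26.5 TPM. No marker of these lists was at 0 in all libraries. Of the markers that could be tested, Cdh1 (-3.12), Krt8 (-2.06) and Epcam (-1.87) among the epithelial ones were lower in OKS + FoxO6 on the log2 scale (adjusted p of 3.72e-05, 0.00038 and 0.00491 in edgeR). The endothelial Kdr (2.19) and Tek (0.95) were higher (adjusted p of 0.0288 and 0.00114 in edgeR), Tek on all 5 days and Kdr on days 3, 5 and 7 in TPM. These genes carried most of the endothelial sum, while Cdh5, Emcn and Cldn5 were at 0 in most libraries and Pecam1 at day 7 was at 5.73 TPM in OKS + DsRed and 0.76 TPM in OKS + FoxO6. The macrophage marker Cd68 (-0.51, 0.363) did not pass. Among the fibroblast markers Twist1 was higher (0.99, adjusted p of 0.00223 in edgeR), Col3a1 was lower (-0.64, 0.0191) and the other 6 did not pass. Col1a2 and Kdr were called for an arm difference that changed with day, against 1.98% of all genes. Their slopes were 0.36 and 0.825 log2 units per day (adjusted p of 0.00212 and 0.00278 in edgeR). The part of these cell types in the lower levels of the mitotic genes was not tested.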

How the data were processed

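Bulk RNA-seq of 10 libraries was used, 1 per arm and day, grouped by their labels. Read alignment and quantification by the authors used bowtie2 and RSEM (mm10 in the labels), and the deposited expected counts are RSEM's estimates per gene with no normalization. The deposited TPM values are RSEM's too, scaled for depth and transcript length. The expected counts in the table of the whole series (48476 genes) and in the values per library (50600 genes) were identical where shared. All 100 counts of the 10 members were whole numbers to within 0.001. The methods name a TruSeq kit for the libraries and the labels a VAHTS kit. Gene coordinates were read from GENCODE M21 (GRCm38).

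The libraries held 1208379 to 2225750 expected counts, a depth that gave the members 14 to 289 counts each. R 4.3.3 with edgeR 4.0.16 was fitted to the rounded expected counts of the whole table, with TMM, filterByExpr by arm, and day and arm as terms. Adjustment was by Benjamini-Hochberg over 10977 genes, with a threshold of 0.05, and the SE was taken from the estimate and its F statistic. The day effect was an F test in that fit, and the change with day added an arm by day number term. Differences on a day are values of OKS + FoxO6 less those of OKS + DsRed on the log2(TPM + 1) scale, which understates changes of low genes, with the 2-fold limit of the study. Python 3.11.15 with scipy 1.17.1 gave the intervals. The fit was also run on simulated counts with 200 genes changed 4-fold, wider than the shift of any of the 10 members. It recovered 200 of them with 10 false calls, and it was not run at shifts as small as those of the members.

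The members and lists were chosen with earlier results of these data known. The genes named are the 10 members, the genes of the lists, Foxo6, and the 10 other genes (mean of at least 5 TPM) most like the members' mean by Pearson's r. The alternatives were DESeq2 1.42.0, its size factors in edgeR, no filter on low counts, no day term, removal of the trend with transcript length, each day left out, limma 3.58.1 on log2(TPM + 1), a pseudocount of 0.1, CPM with TMM, and filters on TPM.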

Additional observations from a re-analysis of the deposited data

Results flagged for a closer look

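Pttg1 (securin) was called for a difference between the arms that changed in a straight line with day, the 1 call among the 10 members and the 64 genes of the 5 mitotic lists, where 1.98% of all genes were called. The arm by day term of edgeR was 0.292 log2 units per day (SE 0.057, adjusted p of 0.0224), with 64.6 TPM against 60.9 at day 0 and 714 TPM against 131 at day 7 (OKS + FoxO6 against OKS + DsRed). At day 0 the ratio of scaled counts was 0.998 (95% Clopper-Pearson interval of 0.602 to 1.69, from 47 and 25 counts), and on the later days it was 2.53 to 6.00. The term was 0.227 without day 0 (SE 0.058, adjusted p of 0.101 in edgeR) and 0.329 without day 7 (SE 0.088, 0.145). The call was lost in both fits, where the calls over all genes also fell, from 217 to 114 without day 0 and 80 without day 7. For the same term DESeq2 gave 0.304 (adjusted p of 0.0115).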

How the results depend on the processing

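The shift had 783 genes lower, 761 higher and 4 of the 10 mitotic genes lower. Without the filter on low counts 1101 genes were lower, 1148 higher and 6 mitotic genes lower, with Ccnb2 and Cdc25b added. Without the day term, which is the block that pairs the libraries of a day, 44 were lower, 124 higher and 1 mitotic gene lower, and limma on log2(TPM + 1) gave 323, 501 and 2. Removal of the trend with transcript length gave 978 genes lower, 903 higher and 7 mitotic genes lower. With each day left out in turn there were 297 to 813 genes lower, 366 to 812 higher and 1 to 7 mitotic genes lower. The day effect took 2152 genes, 3816 without the filter and 1056 to 2485 with a day left out, and the mitotic genes called were 0, 1 (Aurka, adjusted p of 0.0366 in edgeR) and 0 to 1 (Aurka without day 7). The change of the arm difference with day took 217 genes, 628 without the filter and 80 to 233 with a day left out (114 without day 0), and 0 mitotic genes in each. At day 7 the count past 2-fold lower was 1 on TPM, 0 on CPM and 0 with the length trend removed. The cause of these changes was not tested. No estimate of a mitotic gene's shift changed sign. Single days have 1 library per arm and no replicate check. Depth limits Cdc25c most, whose 14 and 15 counts at day 0 leave an interval of the ratio from 0.256 to 1.27.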
